A study of Mus musculus with 22 samples.

Results

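Genes of the choroid plexus epithelium were examined in the right brain hemisphere of mice of known social rank. They were Ttr, Folr1, Kl, Aqp1, Clic6, Enpp2, Sostdc1, Otx2 and Slc4a5, 9 of the 24421 genes in the count tables. The members were chosen by name as genes of this epithelium after earlier results of the same libraries were known, in which Ttr stood among the most variable genes of the females. Their spread over samples and their covariation are therefore given as a description, with no test. Rank, sex and cage were compared in fits over all genes, from which the rows of the 9 genes were read.

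Total RNA freed of ribosomal RNA was sequenced from 22 C57BL/6JOlaHsd mice, an inbred black strain: 7 dominant males, 7 submissive males, 4 dominant females and 4 submissive females. The mice lived 4 to a cage and took the tube test when 10 to 12 weeks old, where 2 mice meet head on in a tube and the loser backs out. From each cage the most dominant and the most submissive animal were killed at the same time; the library names give 7 male cages, 2 female cages and 2 female groups (Gr1 and Gr2). Cages carry here the number of their mice, male cages 1 to 7 and female cages 1 to 4, of which 3 is Gr1 and 4 is Gr2. In the study, females of intermediate rank were mixed into new groups and ranked again; the labels do not say whether Gr1 and Gr2 are such groups. As a model of status the ranks are relative, since each mouse was ranked only against its cage mates, and a whole hemisphere mixes the choroid plexus with all other brain tissue. Male and female libraries have names with different prefixes, whose meaning the labels do not give, and stood in separate tables. Sex, name prefix and table therefore cannot be told apart. Between 12403943 and 15805170 reads were counted per male and between 14967458 and 16488762 per female. All 54 pairs of libraries within the 4 groups differed by more than sampling noise (chi-square averaged over genes 1.81 to 16.6). The males fell into blocks by cage, a division seen in these values: it was 2.09 to 3.15 among dominant males 2 to 4 and 2.99 to 6.15 among 5 to 7, but 7.32 to 13.9 between them. Among submissive males it was 2.03 to 4.32 within 1 to 4 and 1.87 to 3.28 within 5 to 7, but 5.405 to 9.63 between them. Dominant male 1 differed from every other dominant male by 7.64 to 16.6. The comparison of male cages includes this division.

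The choroid plexus is a frond of vascular tissue in the brain ventricles whose epithelium secretes most of the cerebrospinal fluid. Its cells pump sodium, chloride and bicarbonate across their apical face, water follows through aquaporins, and the cells release carrier proteins and growth factor antagonists into the fluid.

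Before the results, the lists of other tissues showed where libraries stood apart. Dominant male 1 had 231.5 CPM (counts of a gene per megaread of its library, after TMM) summed over 10 cerebellar neuron genes, and the other males had 904 CPM or more. All 10 of these genes were lower there than in every other male, and Pcp2, a gene of Purkinje cells, had 0 counts against 254 to 667. At the depth of that library 3 counts make 0.213 CPM, the most that a count of 0 allows. Submissive female 3 held 179 counts of the pituitary hormone gene Prl and 62 of Gh, where the other females had at most 9 and 3. This library was also the highest female library for 9 of the 9 choroid plexus genes. The part of the uneven tissue content in the results below was not tested, and results of the 9 genes without either library are given beside those that differ. The globin genes Hbb-bs, Hbb-bt, Hba-a1 and Hba-a2 were listed at 0 in all libraries, so blood content cannot be read from them.

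All 9 genes passed the expression filter in both sexes. Per kilobase of exon (RPKM, CPM divided by exon length), Ttr, the carrier of thyroxine and of retinol-binding protein in cerebrospinal fluid, was the most abundant with a mean of 567 ± 117 RPKM (SD, n = 22). Enpp2, which encodes the secreted lysophospholipase D autotaxin and is also expressed by oligodendrocytes, followed with 242 ± 29.0 RPKM. Every library had more Ttr than Enpp2, and their ranges did not overlap. The next genes lay far lower. Kl, the klotho co-receptor of the hormone FGF23, had 6.61 ± 1.29 RPKM, and Clic6, of the chloride intracellular channel family, had 6.15 ± 1.03 RPKM. Folr1, the folate receptor that carries folate into the fluid, had 4.96 ± 1.03 RPKM. Kl was above Clic6 in 14 of 22 libraries and Clic6 above Folr1 in 19, so these neighbours overlapped within their spread. The transcription factor gene Otx2 had 2.59 ± 0.406 RPKM, and Sostdc1, a secreted antagonist of BMP and Wnt signals, had 2.00 ± 0.416 RPKM. The water channel gene Aqp1 had 1.71 ± 0.414 RPKM and Slc4a5, a sodium bicarbonate cotransporter, 1.18 ± 0.336 RPKM. Otx2 exceeded Sostdc1 in 20 of 22 libraries, Sostdc1 exceeded Aqp1 in 17 and Aqp1 exceeded Slc4a5 in 21, each pair with overlapping ranges.

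In mm10, the genes lie on separate chromosomes apart from Aqp1 (chromosome 6, 55336299 to 55348555) and Slc4a5 (chromosome 6, 83237375 to 83304945). Ttr lies on chromosome 18 (20665250 to 20674326), Folr1 on chromosome 7 (101858331 to 101870788), Kl on chromosome 5 (150952607 to 150993817) and Clic6 on chromosome 16 (92498147 to 92541241). Enpp2 lies on chromosome 15 (54838679 to 54920146), Sostdc1 on chromosome 12 (36314169 to 36318452) and Otx2 on chromosome 14 (48657677 to 48667644). The exons used for counting shared 0 bases with other listed genes for all 9.

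The spread between mice is given beside that of all tested genes of any abundance, which is no comparison at equal counts. In the 14 males, the median standard deviation of log2 CPM was 0.28 over the 9 genes and 0.13 over the 14737 tested genes. In the 8 females, it was 0.23 over the 9 and 0.094 over the 14865 tested. Ttr ran from 406 CPM in submissive male 4 to 971 CPM in dominant male 5, a ratio of 2.39, with counts of 5163 to 14247. Its coefficient of variation in males was 22.6%, while counting alone would give 1.04%. For the rare Sostdc1, with 31 to 77 counts per library over all 22 mice, the coefficient was 20.8% and counting alone would give 13.9%, so much of its spread was counting error. Enpp2 varied least, by 12.7% in males and 9.10% in females. Submissive male 4 held the lowest male value of Ttr, Folr1, Aqp1, Enpp2, Sostdc1 and Otx2. Dominant male 5 held the highest male value of Ttr, Folr1, Clic6, Enpp2 and Sostdc1.

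**Figure D1:**
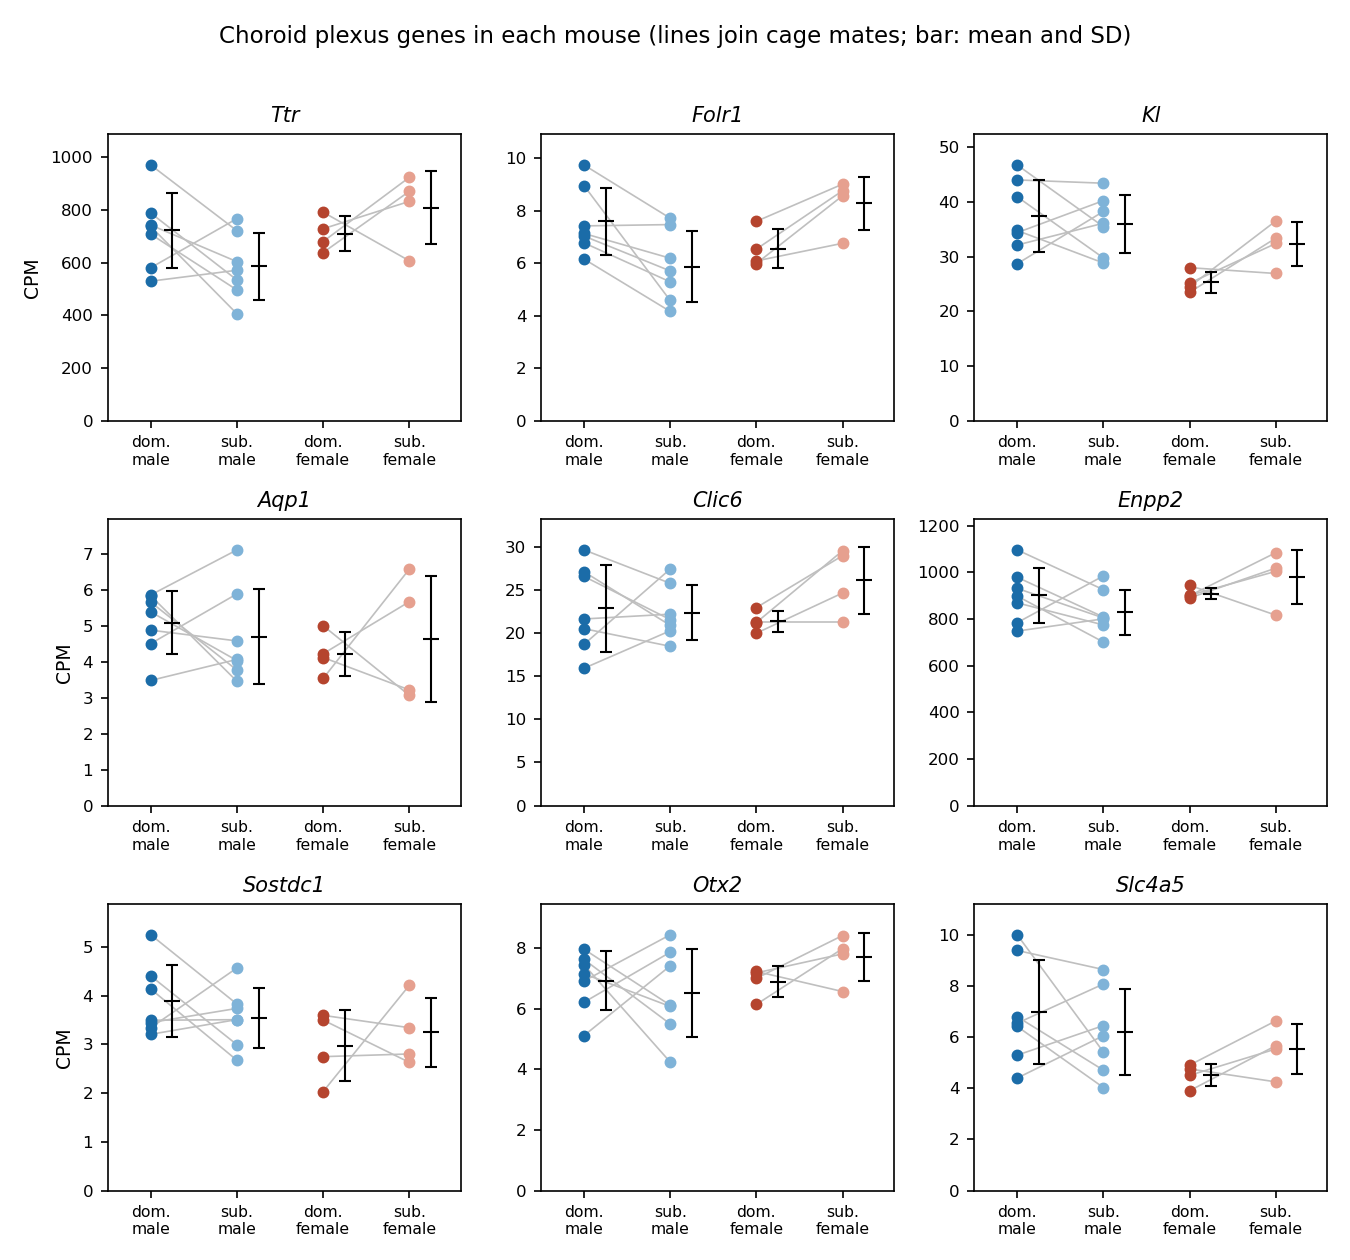
Expression in CPM (vertical axis, starting at 0) of the 9 choroid plexus genes in each of the 22 mice, by group (horizontal axis), with cage mates joined by grey lines and the mean and SD beside the points. The ranks overlap for every gene in both sexes; Ttr in submissive females sits at 833, 607, 924 and 871 CPM, with submissive female 2 below every dominant female.

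Whether rank went with these genes was asked first in males. Fewer choroid plexus cells in a sample and less RNA per cell cannot be told apart in whole tissue, here and in all results below. Ttr had 529.7 CPM in the lowest dominant male, a median of 737 and 971 in the highest; in submissive males the lowest was 406, the median 571 and the highest 767. The ranks overlapped broadly, though 5 of 7 dominant males exceeded the submissive mouse of their own cage. On the log2 scale dominant males exceeded submissive males by 0.30 (standard error 0.132). The quasi-likelihood F test of edgeR gave an unadjusted p = 0.0342 and an adjusted p = 1.00 (Benjamini-Hochberg, which bounds the expected share of false calls). Folr1 had 6.16, 7.13 and 9.74 CPM as the lowest, median and highest value of dominant males, and 4.16, 5.71 and 7.72 CPM in submissive males. It was higher in the dominant mouse in 6 of 7 cages, and in male cage 7 the cage mates were nearly level. Dominant exceeded submissive males by 0.37 in log2 (standard error 0.135), with unadjusted p = 0.0141 and adjusted p = 1.00 by edgeR.

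All 9 genes had a positive log2 fold change in males, where 48.6% of all tested genes did, and the median was 0.12 over the 9 and -0.0015 over all. The other 7 genes lay between 0.028 for Clic6 and 0.16 for Slc4a5. In edgeR, 0 of the 9 were called, as were 0 of 14737 genes (0%), where called means an adjusted p under 0.05. DESeq2 also called 0 of the 9, with 1 of them, Folr1, at an unadjusted p under 0.05. At an unadjusted p under 0.05, Ttr and Folr1 were higher in dominant males, 2 of 9, against 97 genes higher (0.658%) of those tested. Across all genes, 194 reached that level in either direction. For 0 of the 9 genes, and for 1 gene in all (0.00679%), the CPM of the ranks did not overlap. In the fits that each left out 1 male, 7 to 9 of the genes stayed positive and their median ran from 0.062 to 0.17. It was lowest without dominant male 5 (0.062) and without submissive male 4 (0.077). Without dominant male 1, whose cerebellar genes were low, all 9 were positive and 0 were called.

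In females the 9 log2 fold changes of dominant over submissive mice were all negative, and none passed the test. Kl had 25.2, 28.0, 24.5 and 23.5 CPM in dominant females 1 to 4 and 32.4, 26.9, 36.5 and 33.4 CPM in submissive females 1 to 4. The ranks overlapped through female cage 2 alone, where dominant female 2 stood above submissive female 2. The log2 fold change of -0.36 (standard error 0.0787) had the smallest p of the 9 genes, with unadjusted p = 0.000203 and adjusted p = 0.0867 by edgeR's quasi-likelihood F test. Folr1 had 5.99, 6.09, 7.60 and 6.54 CPM in dominant females and 8.57, 6.76, 9.01 and 8.76 CPM in submissive females. It was lower in the dominant mouse of all 4 cages, although submissive female 2 lay below dominant female 3. The log2 fold change of Folr1 was -0.35 (standard error 0.113), with adjusted p = 0.258 by edgeR.

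Clic6 had 19.99, 21.3, 21.2 and 22.9 CPM in dominant females and 24.6, 21.3, 29.5 and 29.0 CPM in submissive females. The mates of female cage 2 were level and the other 3 dominant females stood below their cage mates. The log2 fold change of Clic6 was -0.30 (standard error 0.0858), with adjusted p = 0.193 by edgeR. Ttr had 729, 792, 680.1 and 638 CPM in dominant females and 833, 607, 924 and 871 CPM in submissive females. Submissive female 2 held the lowest Ttr of all females, and the other 3 submissive females the highest. For Ttr the log2 fold change was -0.20 (standard error 0.0871) and the adjusted p by edgeR 0.435. Slc4a5 had 3.91, 4.76, 4.91 and 4.51 CPM in dominant females and 5.67, 4.26, 6.64 and 5.54 CPM in submissive females. Here again submissive female 2 fell among the dominant mice, and the log2 fold change was -0.29 (standard error 0.136), with adjusted p = 0.456 by edgeR.

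The remaining genes had log2 fold changes of -0.12 for Enpp2, -0.12 for Sostdc1, -0.13 for Aqp1 and -0.16 for Otx2. Over all tested genes, 49.1% of the log2 fold changes in females were positive, and the median was -0.20 over the 9 and -0.0020 over all. In edgeR, 0 of the 9 were called, against 14 of 14865 genes (0.0942%). At an unadjusted p under 0.05, 5 of the 9 were lower in dominant females (Kl, Clic6, Folr1, Ttr and Slc4a5), against 607 genes lower (4.08%) of those tested. The CPM of the ranks did not overlap for 0 of the 9 genes and for 812 genes in all (5.46%).

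DESeq2 called 78 genes in all, but its independent filtering, which drops genes of low mean count from the adjustment, left 7 of the 9 without an adjusted p; Ttr and Enpp2, the 2 with a value, were not called. Kl was among the 7 dropped, with an unadjusted DESeq2 p of 0.0000322. With that filtering turned off, a setting added after the values were seen, DESeq2 called Kl (log2 fold change -0.36, adjusted p = 0.0255), 1 of the 9 against 28 of 19834 genes (0.141%). At an unadjusted p under 0.05, DESeq2 had 3 of the 9 (Kl, Clic6 and Folr1) against 1033 of 19834 genes. The call of Kl thus depended on the tool and its filter.

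Single females also decided whether a gene passed. Without submissive female 2, whose Ttr, Enpp2 and Aqp1 lay below every dominant female, 4 of the 9 were called: Kl (log2 fold change -0.44, adjusted p = 0.0131), Ttr (-0.31, adjusted p = 0.0187), Enpp2 (-0.20, adjusted p = 0.0187) and Clic6 (-0.39, adjusted p = 0.0348), against 27 genes in all (0.18%). Without dominant female 2 of the same cage, Kl was called (adjusted p = 0.0283), 1 of the 9 against 77 genes in all (0.515%). Kl was also called with no expression filter (adjusted p = 0.00644), 1 of the 9 against 84 of 19834 genes (0.424%). Without submissive female 3, which held the pituitary counts, 0 of the 9 were called, as were 0 genes in all, and the log2 fold changes of Aqp1 (0.085) and Sostdc1 (0.023) were positive. Without dominant female 3, Sostdc1 was positive too (0.019), and 0 of the 9 were called. The median of the 9 log2 fold changes ran from -0.31, without submissive female 2, to -0.12, without submissive female 3. Over the alternative settings with all 8 females that gave Kl an adjusted p, it ran from 0.00644 to 0.155.

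Within cages, the genes of a mouse tended to sit on the same side of its cage mate. In male cages 2 and 4 all 9 genes were higher in the dominant male, with median differences of 0.40 and 0.55 in log2 CPM. In male cages 5 and 6, 8 and 7 of the 9 were higher in the dominant male, and in male cage 3 the genes divided, 4 higher and 5 lower. Male cages 1 and 7 went the other way, with 8 of 9 genes lower in the dominant male and median differences of -0.22 and -0.33. Among females, 9 of 9 genes were lower in the dominant mouse of female cage 3 (median -0.44), and 8 of 9 in female cages 1 (-0.30) and 4 (-0.33). Female cage 2 was the reverse, with 8 of 9 genes higher in the dominant female (median 0.16). The counts use the sign alone, so they include level pairs. Closest to level were Clic6 in female cage 2, at 0.000136, Sostdc1 in male cage 6, at -0.0047, and Folr1 in male cage 7, at -0.0096. The 9 genes of a mouse share its library, so their agreement within a cage is not 9 separate observations. Over all tested genes, the median difference within a cage lay between -0.0076 and 0.015.

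**Figure D2:**
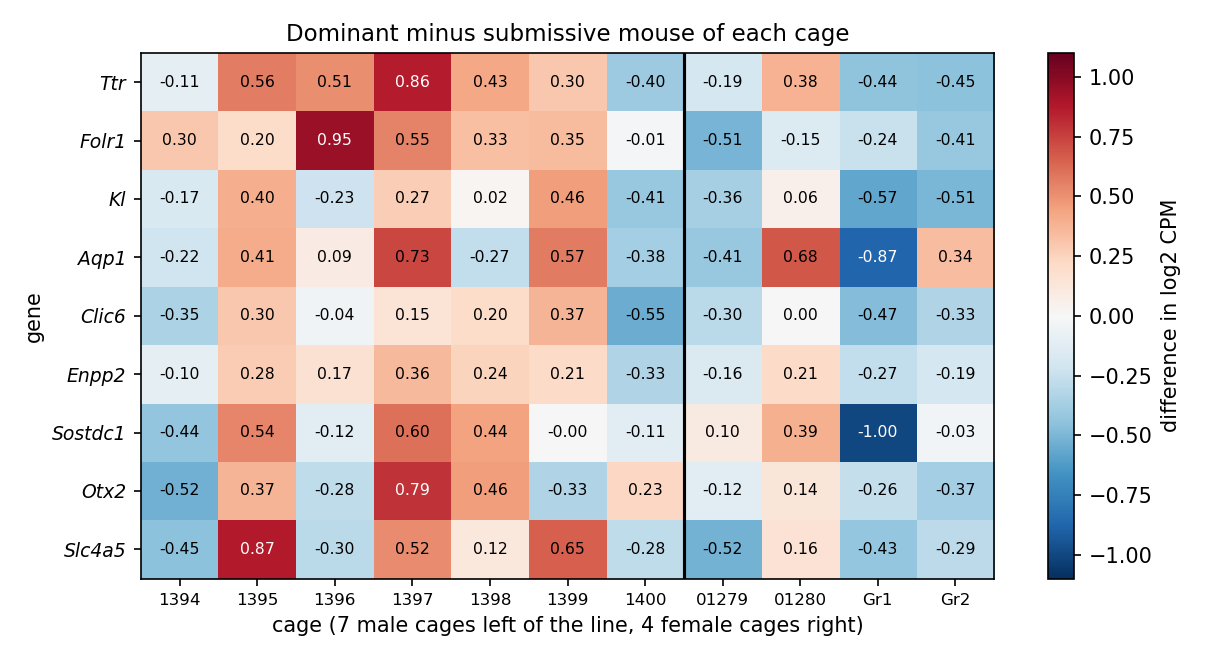
Difference in log2 CPM between the dominant and the submissive mouse of each cage (columns, labelled by library name: male cages 1 to 7 left of the black line and female cages 1 to 4 right of it) for the 9 genes (rows); red is higher in the dominant mouse and blue lower. Male cages 2 and 4 are red for all 9 genes and female cage 3 is blue for all 9, while male cages 1 and 7 differ in sign from most male cages and female cage 2 from the other female cages.

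With all 11 cages in a single fit and cage as a block, 6 of the 9 genes had a positive log2 fold change, between -0.096 for Clic6 and 0.13 for Ttr. This fit shares its samples with the fits within each sex. In edgeR, 0 of the 9 and 0 of 15233 genes (0%) were called, with 0 of the 9 at an unadjusted p under 0.05 against 424 genes (2.78%), and DESeq2 called 0 of the 9. With 1 cage left out, the number of positive genes ranged from 3, without male cage 2 or male cage 4, to 7.

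The difference of the rank effects, female minus male, was the interaction term of a fit with 22 samples. It was negative for all 9 genes, with a median of -0.32, where 52.6% of all tested genes were positive and their median was 0.0067. Of 15 ependymal genes, 1 was positive (median -0.23), and 4 were lower at an unadjusted p under 0.05 by edgeR (232 of all 15233 genes). All 11 forebrain neuron genes were positive (median 0.11), with 0 at that level. The part of these tissues in the interaction was not tested. Folr1 had an interaction of -0.70 (standard error 0.200, unadjusted p = 0.00161), the gene with place 5 by p among 15233. Ttr had -0.49 (standard error 0.205, unadjusted p = 0.0244) and Kl -0.40 (standard error 0.166, unadjusted p = 0.0220). These were 3 of the 9 at an unadjusted p under 0.05 and lower in females, against 232 genes (1.52%). After Benjamini-Hochberg adjustment in edgeR, 0 of the 9 and 0 genes in all (0%) passed, with adjusted p = 0.999 for each of the 9, and DESeq2 also called 0 of the 9. Across all genes, 505 had an unadjusted p under 0.05. All 9 stayed negative in the 22 fits that each left out 1 sample, with 1 to 5 at an unadjusted p under 0.05, 1 without submissive female 3 and 5 without dominant male 1, submissive male 7 or submissive female 2.

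Females were set against males with rank as a covariate, where a difference may belong to sex, to the table or to whatever the prefix of the library names stands for. Kl had 28.7, 34.8 and 46.7 CPM as the lowest, median and highest value of dominant males and 28.8, 36.1 and 43.4 CPM in submissive males. The dominant females, at 23.5 to 28.0 CPM, lay below all 14 males, while submissive females overlapped them. Kl was lower in females, at a log2 fold change of -0.35 (standard error 0.0905), with adjusted p = 0.00301 by the quasi-likelihood F test of edgeR. This fit took no account of the cage, although cage mates are always of the same sex. Slc4a5 had 4.03 to 10.02 CPM in the 14 males and 3.91 to 6.64 CPM in the 8 females, ranges that overlapped. For Slc4a5 the log2 fold change was -0.39 (standard error 0.145) and the adjusted p by edgeR 0.0362.

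These 2 of the 9 genes were called, both lower in females, against 5560 of 15233 genes called (36.5%) and 2730 called lower in females (17.9%). DESeq2 called 2 of the 9 as well. The call of Kl held in the 22 fits without 1 sample, with adjusted p of 0.000879 to 0.00789. Slc4a5 lost its call when the exon length trend of every library was taken out, and in 9 fits without 1 mouse. These mice were dominant males 2 and 5, submissive males 3 and 5, dominant females 1, 2, 3 and 4 and submissive female 2. Without dominant male 5, Ttr (0.26, adjusted p = 0.0436) and Enpp2 (0.15, adjusted p = 0.0478) were called higher in females and 3 of the 9 were called, against 5702 of 15223 genes. Sostdc1 was called lower without submissive male 4 (adjusted p = 0.0498) or without submissive female 3 (adjusted p = 0.0254), with 3 of the 9 called in each, against 5314 of 15225 and 5072 of 15342 genes. The other genes ranged from -0.26 for Sostdc1 to 0.23 for Ttr (adjusted p = 0.115), so members of the same epithelium lay on both sides of 0.

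Cage was tested with rank as a covariate. In males, 0 of the 9 genes passed the joint test of all cages in edgeR, against 868 of 14737 genes (5.89%). At an unadjusted p under 0.05 stood 1 of the 9, Folr1, against 3284 genes (22.3%). In edgeR it had unadjusted p = 0.0374 and adjusted p = 0.193. Over the alternative settings with all males kept, 0 to 5 of the 9 stood at that unadjusted level, and 511 to 1196 genes were called in all. DESeq2 called 0 of the 9, with or without independent filtering. In females, 0 of the 9 passed, against 11 of 14865 genes (0.074%), and DESeq2 called 0. Clic6 alone had an unadjusted p under 0.05, 1 of the 9 against 759 genes (5.11%). In edgeR it had unadjusted p = 0.0344 and adjusted p = 0.942. With all females kept, the alternative settings gave 0 to 2 of the 9 at that unadjusted level and 5 to 99 genes called in all. Without dominant female 2, female cage 2 was represented by submissive female 2 only, and 2 of the 9 were called, Ttr (adjusted p = 0.000163) and Enpp2 (adjusted p = 0.00183), against 92 genes in all (0.616%). That lone mouse held the lowest Ttr and Enpp2 of all females, and the fit assumes that it varies like the mice of the other cages, so these calls describe 1 library.

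The genes rose and fell together across mice. Over the 14 males, the 36 pairs of the 9 genes had a Pearson's r of log2 CPM between 0.152 and 0.966 with a median of 0.651, and a Spearman's rho between -0.116 and 0.956 with a median of 0.635. Over the 8 females, r lay between 0.0649 and 0.966 with a median of 0.741, and rho between 0.0238 and 1.00 with a median of 0.690. All 36 r were positive in both sexes. A member and any other tested gene had a median r of -0.0066 in males and -0.038 in females. An r of 0.7 or more was reached by 17 of the 36 pairs in males and 21 in females, and by 0.386% and 3.34% of the pairs of a member with another tested gene. These values are a description, since the genes were chosen as markers of the same cells, and all genes of a library share its depth and tissue content.

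The correlations are also given without the samples farthest from the rest. Removing the most extreme samples narrows the range, which by itself lowers r. Without the 2 males farthest from the median of the member mean, submissive male 4 and dominant male 5, the median r was 0.436. Without the 2 farthest females, submissive females 1 and 3, it was 0.516. Without submissive female 3 alone, which held the pituitary counts, the median r in females was 0.621. Without dominant male 1 alone, whose cerebellar genes were low, the median r in males was 0.657. Differences between cage mates remove the mean level of a cage, and with it that of sex and table, but keep any difference of the rank effect between the sexes. They had a median r of 0.690 over 11 cages, with a range of 0.202 to 0.972, and a median rho of 0.668. Without the 2 farthest cages, female cage 3 and male cage 4, the median r was 0.5675.

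Ttr and Enpp2 were the closest pair in each set, with r of 0.966 in males, 0.966 in females and 0.972 within cages. They ordered the 8 females identically (rho = 1.00). Enpp2 moved less than Ttr, with a slope of log2 CPM on that of Ttr of 0.53 in males and 0.58 in females. Kl and Slc4a5 followed each other too, with r of 0.8999, 0.857 and 0.925. Otx2 was the member least like the others in males, with r of 0.407 to the mean of the other 8 genes, against 0.878 in females. Within cages that was Folr1, with r of 0.481. Folr1 and Sostdc1 had the lowest r in females, 0.0649, at 95 to 147 and 31 to 64 counts per library.

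**Figure D3:**
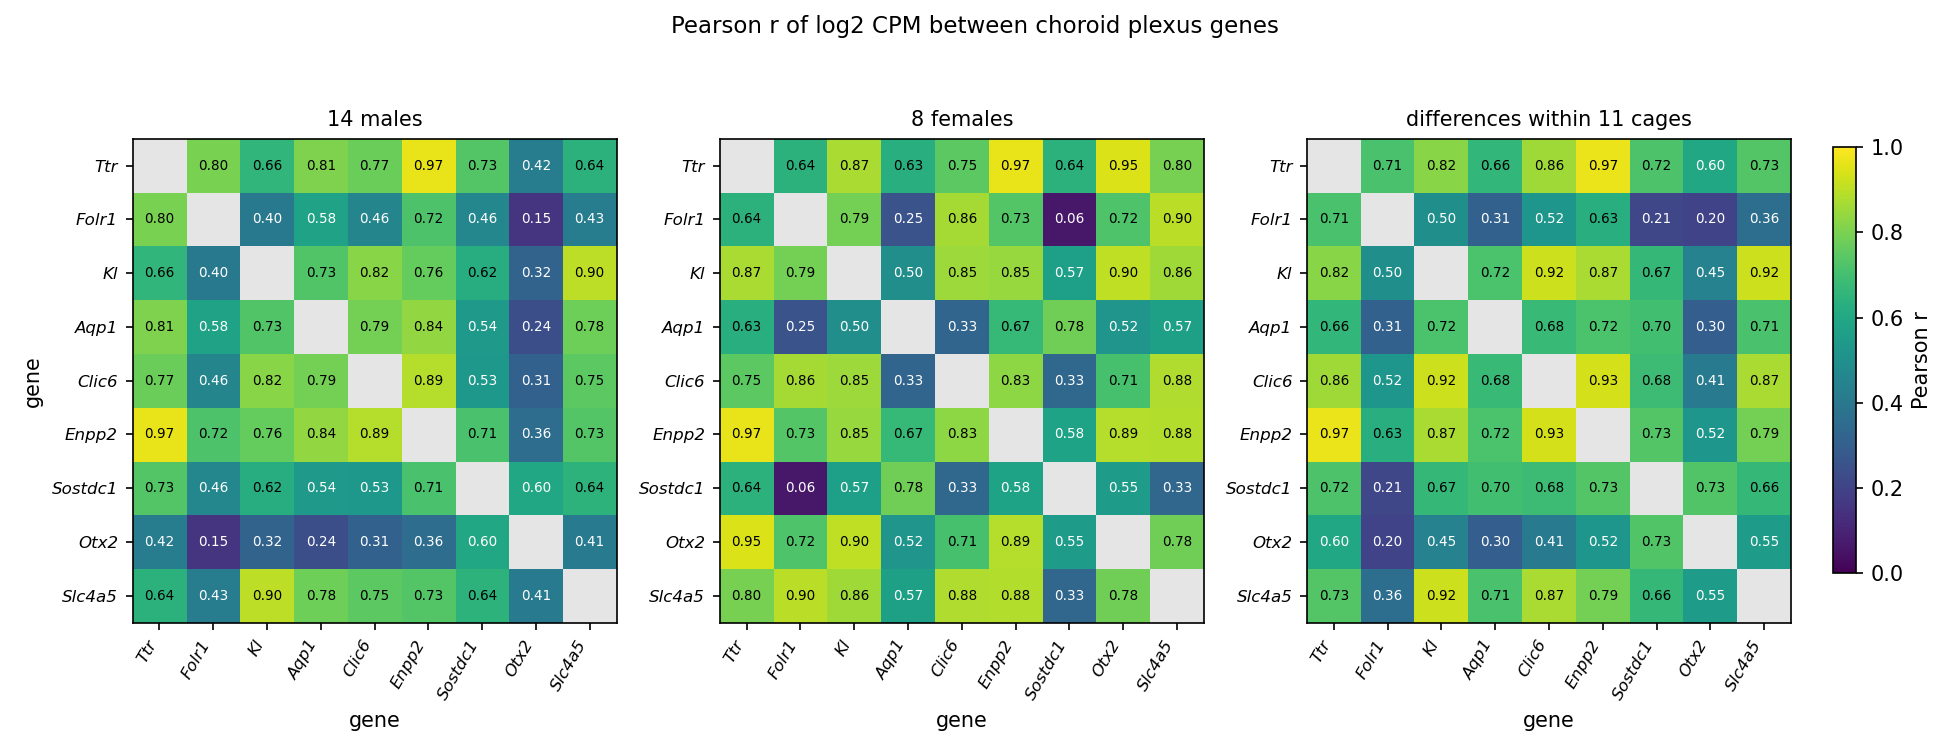
Pearson's r of log2 CPM (colour scale from 0 to 1) for each pair of the 9 genes (both axes) in 14 males, in 8 females and for the differences between cage mates in 11 cages. All 36 pairs are positive in each panel, Ttr with Enpp2 is the highest at 0.97, and the lowest are Folr1 with Sostdc1 in females (0.065) and Folr1 with Otx2 in males (0.15) and within cages (0.20).

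The genes most like the 9 were ranked by the lower of 2 correlations with the mean log2 CPM of the members, over 14 males and over 8 females, among genes tested in both tables. The 10 highest of 14660 were Cldn2, Kcnj13, Ace, 1500015O10Rik, Tmem72, F5, Ifitm10, Kcne2, Cpq and Ifi27. Cldn2, a tight junction claudin of leaky epithelia, had r of 0.871 in males, 0.907 in females and 0.913 within cages. Kcnj13, an inwardly rectifying potassium channel, had 0.833, 0.870 and 0.935. Ace, the angiotensin-converting enzyme, had 0.821, 0.937 and 0.860. The lower r was 0.814 for 1500015O10Rik, 0.787 for Tmem72, 0.784 for the coagulation factor gene F5 and 0.767 for the potassium channel subunit Kcne2. It was 0.770 for Ifitm10, 0.737 for Cpq and 0.710 for Ifi27, which were on no list. Of these 10 genes, 7 were on the list of other choroid plexus genes, which has 31 of the 14660 genes ranked. That list was written with the members, when earlier results of these data were known. All of these genes share libraries with the members, so the ranking describes these mice only.

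The list of other genes of choroid plexus epithelium held 32 genes, of which 31 were tested, and Mfrp was listed at 0 in all libraries. Their median r with the mean of the 9 genes was 0.538 in males, 0.527 in females and 0.654 within cages, against -0.011, -0.045 and -0.024 over all other tested genes. Their summed level was 360 ± 23.1 CPM (SD, n = 7) in dominant and 349.7 ± 24.4 in submissive males, and 322 ± 11.1 (SD, n = 4) in dominant and 359 ± 28.5 in submissive females, with Cab39l the most abundant. In females, 29 of 31 had a negative log2 fold change. At an unadjusted p under 0.05, 9 were lower in dominant mice, against 607 of all 14865 genes (4.08%), with 0 called by edgeR. F5 had the smallest p among them (log2 fold change -0.39, adjusted p = 0.0867 from edgeR). In males, 20 of 31 were positive, 0 reached an unadjusted p under 0.05 and 0 were called. The interaction had 29 of 31 negative and 11 of them at an unadjusted p under 0.05, against 232 of all 15233 genes (1.52%), with 0 called. Against males, 5 of 31 were called, each lower in females: Sulf1, F5, Ace, Abca4 and Tmem72. Over all genes, 2730 of 15233 were called lower (17.9%) and 2830 higher, which makes 5560 called in either direction (36.5%).

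The 23 genes of ion transport, carbonic anhydrases and water channels of fluid secretion are shared with neurons and glia, and their median r with the members was 0.290 in males and 0.358 in females over 22 tested genes. Kcnj13 and Car12 on this list are also on the list of other choroid plexus genes. Kcnj13 had r of 0.833 in males, 0.870 in females and 0.935 within cages. Slc4a2, the basolateral anion exchanger of the epithelium, had 0.783, 0.670 and 0.937. In females 3 of the 22 were lower and 2 higher in dominant mice at an unadjusted p under 0.05, the 2 being Wnk1 (0.16) and Atp1b2 (0.12), and 0 were called. Over all 14865 genes, 607 were lower and 956 higher at that level. For sex, 2 of the 22 were called higher in females and 5 lower, against 2830 and 2730 of all 15233 genes. The summed level lay between 4056 and 4546 CPM over all 22 mice, with Atp1b1 the most abundant.

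Other tissues moved with the members in part. The 15 ependymal genes, of the ciliated cells that line the ventricles, had a median r with the members of 0.530 in females and -0.022 in males. In females 14 of 15 had a negative log2 fold change, 5 of them at an unadjusted p under 0.05 (607 of all 14865 genes) and 0 called, with Tmem212 at -0.72 (standard error 0.192). Their summed level was 75.7 ± 4.67 CPM (SD, n = 4) in dominant and 88.3 ± 9.71 in submissive females, and Dnah5 was the most abundant. The 10 cerebellar genes had a median r of 0.689 in females and 0.370 in males, dominant male 1 included. Their sums were 1546 ± 199 CPM in dominant and 1542 ± 281 in submissive females, and Car8 was the most abundant. In males, dominant male 1 stood at 231.5 CPM, the other dominant males at 904 to 1569 and submissive males at 962 to 1530 CPM. For rank in males 0 of the 10 had a positive log2 fold change (median -0.20), and in the interaction 10 of 10 had (median 0.17). In both, 0 of them had an unadjusted p under 0.05 by edgeR. Both fits include dominant male 1, and the values of these genes without it are not given. The 11 forebrain neuron genes went the other way in females, with a median r of -0.597, and all 11 had a positive log2 fold change, 5 at an unadjusted p under 0.05 (956 of all 14865 genes) and 0 called. Their sums were 1123 ± 77.4 CPM in dominant and 1021 ± 30.1 in submissive females, with Camk2a the most abundant. Genes of several lists were also called between the sexes, and no list was tested against all genes. Called higher and lower in females were 4 and 0 of 10 cerebellar genes (median log2 fold change 0.36, dominant male 1 included). For 11 forebrain genes the numbers were 4 and 1, and for 10 oligodendrocyte genes 0 and 4. They were 2 and 5 for 15 meningeal and stromal genes, against 2830 and 2730 of all 15233. The part of each of these tissues in the differences between ranks and sexes was not tested.

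For the other lists, the median r with the members in males and females was 0.280 and 0.465 for 15 meningeal and stromal genes, 0.259 and 0.177 for 11 endothelial genes and 0.403 and 0.349 for 10 oligodendrocyte genes. It was -0.058 and -0.073 for 10 microglia and macrophage genes. Enpp2 is shared with oligodendrocytes, and the median r of the remaining 8 genes without it was 0.610 in males and 0.717 in females. Alas2, the only red cell gene tested, had r of -0.060 in males and -0.567 in females. It had a log2 fold change of 0.65 in dominant over submissive females (unadjusted p = 0.000730, adjusted p = 0.149 by edgeR) and an interaction of 0.58 (unadjusted p = 0.0319, adjusted p = 0.999). The summed red cell genes lay at 4.19 to 6.24 CPM in dominant and 2.83 to 3.97 CPM in submissive females and did not overlap. Of the 6 genes summed, 4 were at 0 in all libraries, and the sum mostly repeats Alas2, with a mean of 5.46 CPM. Over all single genes tested in females, 812 of 14865 (5.46%) did not overlap between the ranks. Against males, Alas2 was called lower in females (-0.72, adjusted p = 0.000133 by edgeR). Of the pineal, retinal and pituitary genes, Pomc alone was tested, with r of -0.0999 in males and 0.762 in females. Like the 9 genes it had a negative log2 fold change in females (-0.83, unadjusted p = 0.0246, adjusted p = 0.385 by edgeR) and a negative interaction (-1.22, unadjusted p = 0.0123, adjusted p = 0.999). Submissive female 3, with 99 counts of Pomc against 17 to 36 in the other females, is in both.

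Promoter sequence was read for the members in the RefSeq promoter table for GRCm38.p6, which holds 250 bases before to 50 after each start. It gave 7 promoters for 4 of the 9 genes: Kl, Aqp1, Slc4a5 and 4 starts of Otx2. Since the genes rose and fell together and Otx2 encodes a homeodomain factor, TAATCC, the core that OTX-type homeodomains are known to bind, was searched on both strands, where it reads GGATTA on the opposite strand. It was found in 1 of the 7, a start of Otx2 itself, and in 2320 of all 32851 promoters of 300 bases (7.06%). A match is a description of the letters in this window and shows neither a site nor a cause. The Otx2 promoter with the match (chr14:48665060-48665359, minus strand) is shown with the motif in capitals, beside those of Kl (chr5:150952357-150952656, plus strand) and Slc4a5 (chr6:83237125-83237424, plus strand), whose levels were among the closest pairs in males and within cages and which held no match.
Otx2: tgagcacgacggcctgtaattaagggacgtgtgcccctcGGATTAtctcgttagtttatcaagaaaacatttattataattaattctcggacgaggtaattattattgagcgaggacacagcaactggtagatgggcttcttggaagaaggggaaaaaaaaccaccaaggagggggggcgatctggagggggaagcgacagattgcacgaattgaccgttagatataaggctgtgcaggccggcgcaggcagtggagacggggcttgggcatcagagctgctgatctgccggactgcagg
Kl: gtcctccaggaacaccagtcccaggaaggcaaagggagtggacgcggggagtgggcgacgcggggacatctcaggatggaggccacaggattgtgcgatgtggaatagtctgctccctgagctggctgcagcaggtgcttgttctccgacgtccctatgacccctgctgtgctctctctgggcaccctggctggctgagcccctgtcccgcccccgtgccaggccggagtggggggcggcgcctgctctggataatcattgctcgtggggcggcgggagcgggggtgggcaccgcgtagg
Slc4a5: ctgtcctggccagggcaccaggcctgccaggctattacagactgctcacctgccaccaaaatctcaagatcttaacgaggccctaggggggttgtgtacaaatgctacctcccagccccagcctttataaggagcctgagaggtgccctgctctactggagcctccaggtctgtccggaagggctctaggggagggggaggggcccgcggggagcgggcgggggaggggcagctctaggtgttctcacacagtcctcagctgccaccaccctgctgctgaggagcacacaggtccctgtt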

How the data were processed

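RNA was measured with stranded total RNA libraries. The authors used cutadapt 1.15 and bbduk for trimming and STAR 2.6.0a for mapping to mm10. They deposited the count of reads per gene from featureCounts 1.6.2; the strand setting of the counting is not given in the sources used here. The male and female tables list the same genes in the same order and were joined row by row; 27 rows are named by a date in place of a gene symbol. Groups and cages were taken from the sample labels and library names. Counts were tested with edgeR 4.0.16 (R 4.3.3): TMM, expression filter (minimum count 10, minimum total 15), quasi-likelihood test, Benjamini-Hochberg adjustment over all tested genes and a threshold of 0.05. For display, all 22 libraries were normalized together, and log2 CPM used a prior count of 2. The fits and correlations were checked on simulated data.

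The members and lists were chosen with earlier results of these data known. Named are the 9 members, list genes that passed a test or were most abundant, and the 10 genes most like the members. Kl, Aqp1, Folr1, F5, Slc4a2, Tmem212, Alas2, Wnk1, Atp1b2 and the hormone genes were singled out after their values were seen.

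Numbers of replicates pair cage mates: library names give the cage, and the study states that both were killed together. Deviations from the group mean had a mean correlation across genes of 0.177 between male cage mates (other pairs -0.029) and 0.0239 between female cage mates (other pairs -0.0080). Alternatives were DESeq2 1.42.0, its size factors in edgeR, no filter, a robust prior, removal of each sample's loess trend on exon length (span 0.3), the cage as a block, and leaving out each sample or cage. DESeq2 without independent filtering was added after the data were seen. For r they were a prior count of 0.5, no TMM, no Enpp2, cage means removed and the 2 farthest samples left out.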

Additional observations from a re-analysis of the deposited data

Results flagged for a closer look

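For each of the 9 genes in each of the 4 groups, the distance of the highest and the lowest mouse from its nearest neighbour was compared with the range of the group. In these 36 groups of values, 0 mice lay apart by Dixon's criterion at the 95% level. Among 48 further groups of values, the mean of the members and the summed levels of the other lists, 3 did. Chance gives about 1 in 20 groups. Submissive female 3 had 23.7 CPM over the pineal, retinal and pituitary genes, far above the other submissive females, which had at most 2.94 CPM. Submissive male 4 had 962 CPM over the cerebellar genes, below the next submissive male at 1319 CPM, and it was also the male with the lowest Ttr. Dominant male 5, at 904 CPM over the same genes, held the highest male Ttr. Dominant female 1 had 4546 CPM over the genes of fluid secretion, with the next dominant female at 4433 CPM. The part of these values in the results for choroid plexus genes was not tested.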

How the results depend on the processing

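The number of the 9 genes called stayed at 0 for rank in males, rank over 11 cages, the interaction and cage in males under every alternative run. For rank in females, no expression filter gave 1 call, DESeq2 without independent filtering, chosen after seeing the data, gave 1, and leaving out 1 mouse gave 0 to 4. For females against males, removal of the trend on exon length gave 1 call, and leaving out 1 mouse gave 1 to 3. For cage in females, leaving out 1 mouse gave 0 to 2. With the cage as a block, 0 of the 9 were called for rank in males, in females and in the interaction. Without the block, 0 were called over the 11 cages, so the pairing changed no call in these comparisons. Females against males had no alternative that took the cage into account.

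The median r without the 2 samples farthest from the median was 0.436 in males and 0.516 in females. Leaving out 1 mouse gave 0.583 to 0.712 in males and 0.621 to 0.799 in females, and leaving out 1 cage gave 0.631 to 0.722 within cages. With cage means removed (the paired view), it was 0.657 in males and 0.822 in females. For the 13 values of single genes chosen by an unadjusted p under 0.05, 8 of 298 alternatives gained a call and 10 lost it, all of them for Slc4a5 in females against males. Genes not chosen so did change sign without 1 mouse: Aqp1 (up to 0.085) and Sostdc1 (up to 0.023) in females, Kl (down to -0.010) and Clic6 (down to -0.047) in males. The cause of the changes between alternatives was not tested. Counts of 31 to 147 per library limit Sostdc1, Folr1, Aqp1, Otx2 and Slc4a5. With 4 females per rank, the calls for rank and cage in females changed with single mice. The call of Kl for females against males held in all 22 fits without 1 mouse, none of which took the cage into account.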
